A study of Mus musculus with 10 samples.

Results

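The 41 genes described here encode the chaperones, stress sensors and secretory machinery of the endoplasmic reticulum (ER). They are the genes of the deposited expression table whose symbol is on a fixed list of 41, out of 56748 genes in the table, and every one of them was found. They fall into 9 roles: 9 chaperones of the ER lumen with their partners, 2 lectin chaperones, 4 protein disulfide isomerases, 3 stress sensors grouped with Xbp1, 7 genes of ER-associated degradation, 3 subunits of the Sec61 channel, 4 of the translocon-associated protein complex, 3 of signal peptidase and 5 of the oligosaccharyltransferase. RNA was sequenced from the normal liver of wild-type FVB animals (4 libraries), from tumours that Akt and Nras induced in the liver (3 libraries), and from 3 liver tumours induced with Akt, Nras and Foxo1AAA, a form of the transcription factor FOXO1 that the sample labels write as FoxoAAA. The tumour DNA was delivered to hepatocytes by hydrodynamic tail vein injection. The labels give a wild-type genotype for the normal livers. The delivery route does not by itself tell the genotype of the tumour-bearing mice. The sources used here do not say whether the normal livers received any injection, nor the age and sex of the mice. The labels also do not say that the libraries of a group came from separate mice, so the p-values measure the spread between these libraries.

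Proteins bound for secretion enter the ER through the Sec61 channel, lose their signal peptide to signal peptidase and receive glycans from the oligosaccharyltransferase. Inside the lumen, BiP (Hspa5) and its partners, the calnexin and calreticulin lectins and the disulfide isomerases fold them, and misfolded chains are sent back to the cytosol for degradation. The sensors IRE1 (Ern1), PERK (Eif2ak3) and ATF6 read the folding load and adjust transcription and translation, a response that hepatocytes use heavily because the liver makes most plasma proteins.

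Many genes of this response carry an ER stress response element (ERSE) upstream of their start, CCAAT followed after 9 bases by CCACG, to which NF-Y and ATF6 bind. The RefSeq promoter table (GRCm38.p6, 250 bases before to 50 bases after each annotated start) held promoters for 33 of the 41 genes. On either strand, the ERSE letters were present in the promoters of 9 of these 33 genes (27.3%), against 37 of all 27025 genes with a listed promoter (0.137%). A shorter relative, ERSE-II (ATTGG, 1 base, CCACG), was present in 2 of the 33 genes (6.06%) and in 12 of all genes (0.0444%), and no member promoter held both forms. TGACGTGG, a site associated with XBP1, was in 0 of the 33 and in 193 of all genes (0.714%). The list was drawn up by function, so these shares are a description, and a match to the letters is not evidence of binding. The stretches around 7 of the matches are shown because their genes carry the results below. They read 5′ to 3′ on the gene's own strand, with the fixed letters of each element in capitals. In Creld2 and Derl3 the element lies in the opposite orientation.
Hspa5 (chr2:34772020-34772048, plus strand): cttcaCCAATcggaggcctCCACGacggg
Hsp90b1, upstream copy (chr10:86705633-86705661, minus strand): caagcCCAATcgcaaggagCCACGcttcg
Creld2 (chr15:88819515-88819543, plus strand): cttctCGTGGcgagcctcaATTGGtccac
Dnajc3 (chr14:118937822-118937850, plus strand): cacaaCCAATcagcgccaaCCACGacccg
Syvn1 (chr19:6046527-6046555, plus strand): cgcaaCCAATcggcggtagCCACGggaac
Derl3 (chr10:75893237-75893265, plus strand): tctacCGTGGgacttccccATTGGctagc
Herpud1, ERSE-II (chr8:94386368-94386396, plus strand): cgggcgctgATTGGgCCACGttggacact
The Hspa5 element began 65 bases before the annotated start and that of Syvn1 began 44 bases before it. Hsp90b1 carried a pair of elements, beginning 212 and 107 bases before its start. Calr, Canx and Pdia6 also held the ERSE letters, and Dnajb11 held ERSE-II from base 8 after its start.

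**Figure D1:**
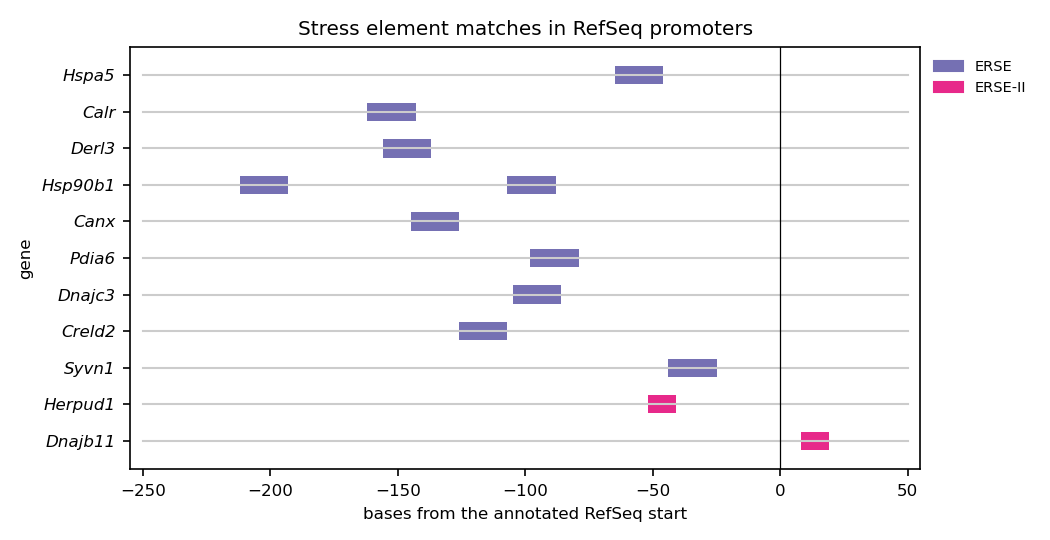
Position of each ERSE and ERSE-II match in the RefSeq promoters of the 11 genes that held one, in bases from the annotated start (line at 0; grey lines span the 300 bases searched). All matches but that of Dnajb11 begin before the start, and Hsp90b1 has 2.

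Values are FPKM, fragments per kilobase of gene length scaled to depth, as deposited. The libraries held 13585055 to 21262035 reads, recovered from the FPKM and the gene lengths in the table. All 41 genes passed the filter on low values, as did 12439 genes in all. Reads per gene and library ran from 19 to 92 for Derl3, the least expressed member, and up to 32054 for P4hb. Changes are log2 differences of FPKM + 1 with their standard error (SE), folds are ratios of mean FPKM, and a gene was called when limma's Benjamini-Hochberg adjusted p over all 12439 genes was under 0.05. Summed over all genes, the deposited FPKM of a library came to between 692009.9 and 743202.8 for normal liver, between 349618.6 and 381653.1 for Akt/Nras tumours, and between 413812.4 and 444893 for Akt/Nras/Foxo1AAA tumours. The median gene changed by -0.07, -0.09 and -0.01 in the 3 comparisons on the deposited scale, but by 0.70, 0.47 and -0.21 when every library was scaled to the same sum (equal totals). Changes and calls below are on the deposited scale unless equal totals are named. With equal totals the sign turned for 18, 20 and 17 of the 41 genes in the 3 comparisons, and the equal-totals value or its range is given where a printed change turned. The 2 tumour comparisons with normal liver share the same 4 normal livers.

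Against normal liver, 6 of the 41 genes were called higher and 11 lower in Akt/Nras tumours, and 24 were not called. Among all genes tested 69.0% were called (31.1% higher and 37.9% lower), against 41.5% of the members. In Akt/Nras/Foxo1AAA tumours 5 members were called higher and 8 lower (31.7%), where 63.3% of all genes were called (26.8% higher, 36.5% lower). The median change of the 41 genes was -0.04 and -0.06. With equal totals the split was 36 higher and 2 lower in Akt/Nras tumours and 33 higher and 1 lower in Akt/Nras/Foxo1AAA tumours. All genes then split 8609 to 1713 and 7584 to 1681. The calls that held under every one of 20 alternative settings were Dnajb9, Eif2ak3, Sec61a1 and Spcs1 higher and Herpud1 and Derl2 lower in Akt/Nras tumours, and Dnajb9, Eif2ak3 and Spcs1 higher and Herpud1 lower in Akt/Nras/Foxo1AAA tumours. Of the reads of a normal liver, the 41 genes together took 0.747% ± 0.041 (SD, n = 4). Their share was 1.10% ± 0.18 (SD, n = 3) for Akt/Nras and 0.991% ± 0.023 (SD, n = 3) for Akt/Nras/Foxo1AAA tumours. The divisor behind the deposited FPKM, over the recovered reads, was 0.629 to 0.668 in normal liver. It was 1.002 to 1.061 in Akt/Nras and 0.875 to 0.928 in Akt/Nras/Foxo1AAA tumours. A gene of unchanged FPKM therefore also took a larger share of the reads in tumours, so this rise does not set the 41 genes apart.

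**Figure D2:**
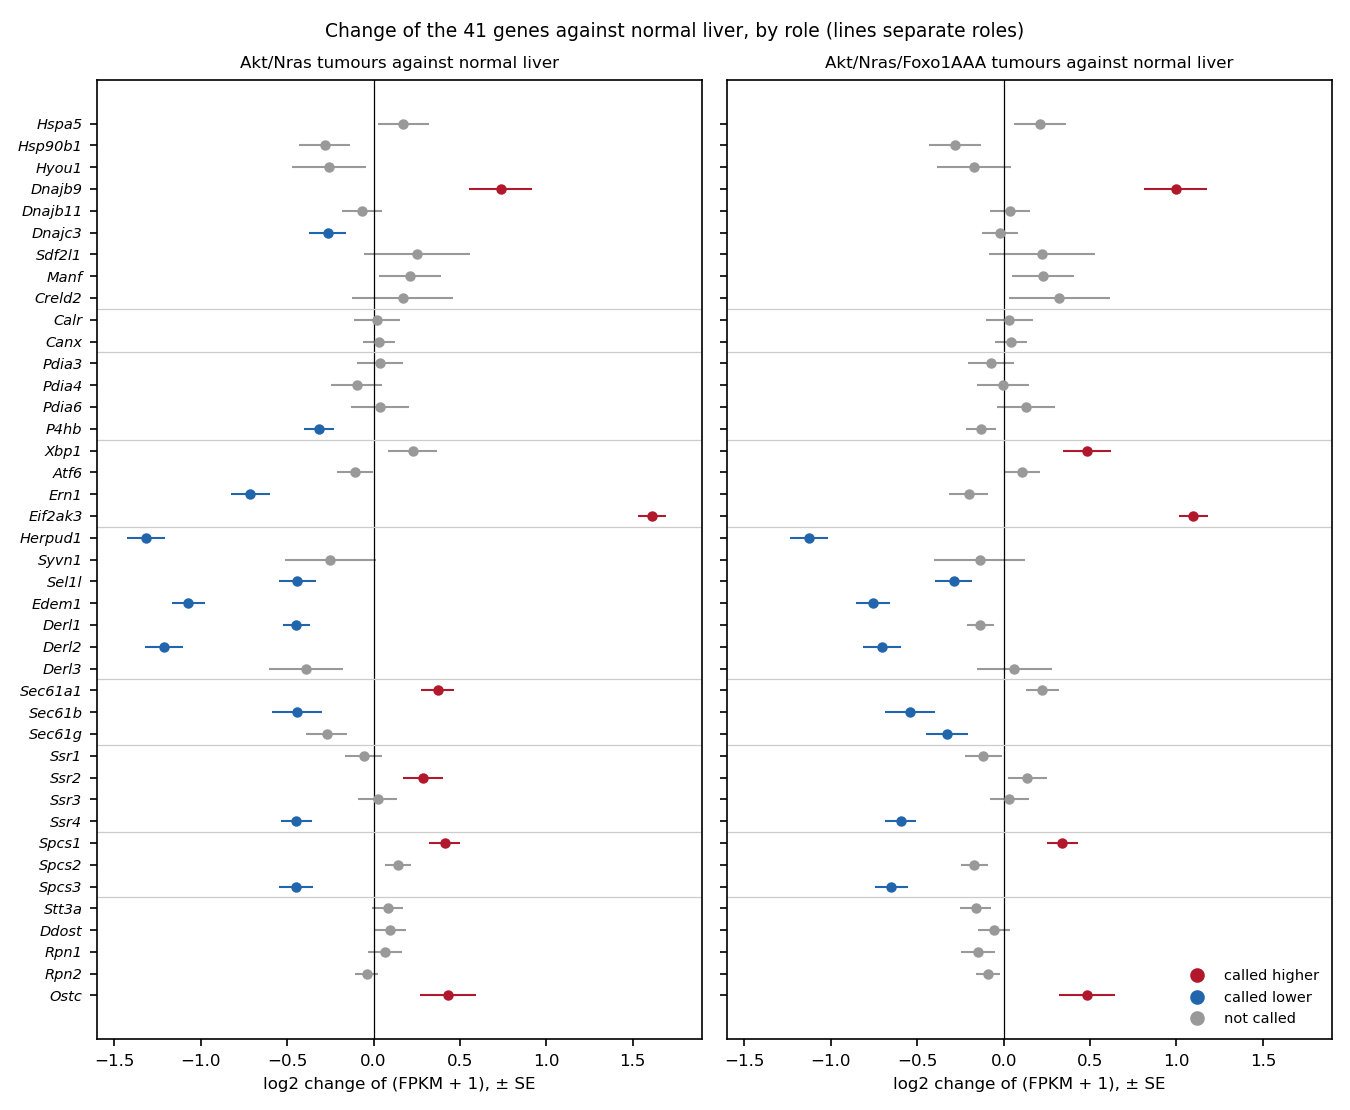
Log2 change of FPKM + 1 with SE for each of the 41 genes in both tumour groups against normal liver, ordered by role with lines between roles. Red points are called higher, blue lower and grey not called: Eif2ak3 lies farthest to the right and Herpud1 farthest to the left in Akt/Nras tumours, and no degradation gene is called higher in either panel, where equal totals call 3 and 2 of the 7 higher.

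Of the 9 lumen chaperones and partners, 1 was called higher and 1 lower in Akt/Nras tumours, and 1 higher and none lower in Akt/Nras/Foxo1AAA tumours. All 9 were called higher in both tumour groups with equal totals (0.68 to 1.67 and 0.44 to 1.69). Hspa5, which encodes BiP, the main Hsp70 of the ER, stood at 205.5, 246.6, 237.6 and 209.1 FPKM in the 4 normal livers. The Akt/Nras tumours held 206.5, 320.2 and 243.9 FPKM of Hspa5, and the Akt/Nras/Foxo1AAA tumours 294.7, 250.8 and 235.7. All 3 groups overlapped, and the changes from normal liver, 0.17 ± 0.15 (SE; limma adjusted p = 0.32) and 0.21 ± 0.15 (adjusted p = 0.237), were about the size of their error. Both changes of Hspa5 were called higher with equal totals (1.14 and 0.93, limma adjusted p = 2.98e-05 and 0.000212). Hsp90b1, the Hsp90 of the ER (GRP94), measured 147.1 to 160.8 FPKM in normal liver, 96.4, 161.7 and 132.5 in Akt/Nras tumours and 137.9, 125.3 and 119.6 in Akt/Nras/Foxo1AAA tumours. Every Akt/Nras/Foxo1AAA tumour lay under the normal range, but neither change of Hsp90b1 (-0.28 ± 0.15 SE in both) was called (limma adjusted p = 0.112 and 0.119), and with equal totals both values were positive (0.68 and 0.44).

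Dnajb9, an ER-resident J-protein that partners BiP and restrains IRE1, was called higher in both tumour groups. Its level was 18.0 to 23.4 FPKM in the 4 normal livers. It reached 26.3, 50.9 and 33.8 FPKM in Akt/Nras tumours and 40.7, 44.4 and 43.5 in Akt/Nras/Foxo1AAA tumours. No tumour overlapped the normal range, and the mean was 1.75 times that of normal liver with Akt/Nras (0.74 ± 0.18 SE, limma adjusted p = 0.0041) and 2.03 times it with Foxo1AAA added (0.99 ± 0.18, adjusted p = 0.000709). Dnajc3 (p58IPK), a J-protein that binds unfolded chains, measured 47.1, 54.1, 57.9 and 49.9 FPKM in normal liver and 38.6, 49.99 and 41.7 in Akt/Nras tumours. The ranges overlapped, and its decrease (-0.27 ± 0.11 SE, limma adjusted p = 0.0427) turned to 0.69 with equal totals and was lost without normal liver 2, 3 or 4 (adjusted p = 0.0887, 0.108 and 0.0574), without Akt/Nras 1 or 3 (0.155 and 0.116) or without any Akt/Nras/Foxo1AAA library (0.0502 to 0.0538). In Akt/Nras/Foxo1AAA tumours Dnajc3 was at 53.6, 48.5 and 52.3 FPKM, within the normal range (adjusted p = 0.879). The remaining 5 lumen genes were not called in either comparison. Hyou1, the nucleotide exchange factor of BiP, changed by -0.26 ± 0.22 and -0.17 ± 0.22 (SE), and by 0.69 and 0.53 with equal totals (limma adjusted p = 0.013 and 0.0477). Dnajb11, a J-protein of the lumen, changed by -0.06 ± 0.12 and 0.04 ± 0.12, and the first value was 0.89 with equal totals. Sdf2l1, its partner in a chaperone complex, Manf, a secreted stress-induced factor that binds BiP, and Creld2, another stress-induced secreted protein, changed by between 0.17 and 0.32 with SE of 0.18 to 0.31.

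The lectin chaperones Calr and Canx, which bind monoglucosylated chains, did not move beyond their error on the deposited scale. Calr lay between 317.4 and 385.3 FPKM in the normal livers, between 284.8 and 392.1 in the Akt/Nras group and between 300.8 and 388.7 in the Akt/Nras/Foxo1AAA group. Canx ran from 82.5 to 89.5, 74.5 to 94.99 and 85.9 to 88.7 FPKM. Their changes lay between 0.02 and 0.04, with adjusted p from 0.696 to 0.909 (limma). With equal totals both were called higher, by 0.99 in Akt/Nras tumours and by 0.75 to 0.76 in Akt/Nras/Foxo1AAA tumours.

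Among the disulfide isomerases, 1 of 4 was called lower in Akt/Nras tumours and none in Akt/Nras/Foxo1AAA tumours. P4hb, which encodes PDI itself and is the most abundant member by FPKM, stood at 596.0, 629.8, 681.5 and 610.6 FPKM in normal liver. In Akt/Nras tumours it was 495.1, 503.9 and 516.3 FPKM, below every normal liver (-0.32 ± 0.09 SE, limma adjusted p = 0.00791), and the sign turned with equal totals (0.66). The Akt/Nras/Foxo1AAA tumours, at 617.2, 548.4 and 559.4 FPKM of P4hb, overlapped normal liver (-0.13 ± 0.09 SE, adjusted p = 0.212; 0.59 with equal totals, adjusted p = 9.53e-05). Pdia3 (ERp57, which works with the lectins), Pdia4 and Pdia6 changed by between -0.10 and 0.13, with limma adjusted p from 0.519 to 0.987, whereas with equal totals all 4 isomerases were called higher in both tumour groups.

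The stress sensors moved separately from one another. Eif2ak3, which encodes PERK, the kinase that slows translation by phosphorylating eIF2α, showed the largest change of the 41 genes in Akt/Nras tumours. The normal livers had 2.86, 2.79, 2.48 and 3.05 FPKM. Akt/Nras tumours held 11.7, 9.80 and 10.3 FPKM of Eif2ak3, and Akt/Nras/Foxo1AAA tumours 7.20, 7.19 and 6.97. The 3 groups did not overlap at any point. The mean of the Akt/Nras tumours was 3.797 times that of normal liver (1.61 ± 0.08 SE, limma adjusted p = 6.56e-08) and that of the Akt/Nras/Foxo1AAA tumours 2.55 times (1.10 ± 0.08, adjusted p = 1.4e-06), with 143 to 1325 reads per library behind it. Ern1, which encodes IRE1α, the kinase and nuclease that splices Xbp1 mRNA, went the other way. Its level was 11.5, 12.2, 13.9 and 11.9 FPKM in normal liver and 6.27, 7.34 and 7.84 in Akt/Nras tumours, with no overlap (-0.71 ± 0.11 SE, limma adjusted p = 0.000208). The sign of this change turned with equal totals, to 0.16 (adjusted p = 0.235). In Akt/Nras/Foxo1AAA tumours Ern1 was at 10.03, 9.36 and 12.6 FPKM, of which 1 lay inside the normal range (-0.20 ± 0.11 SE, adjusted p = 0.138; 0.46 with equal totals).

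Xbp1, the transcription factor that IRE1 activates by splicing, was at 118.8, 102.2, 136.7 and 119.7 FPKM in normal liver. It measured 125.4, 147.6 and 145.3 FPKM in Akt/Nras tumours (0.23 ± 0.14 SE, limma adjusted p = 0.177) and 135.2, 170.3 and 199.7 in Akt/Nras/Foxo1AAA tumours. The last group had 1 library within the normal range, and the rise of 0.48 ± 0.14 (SE, limma adjusted p = 0.012) missed the threshold without Akt/Nras/Foxo1AAA 3 (0.35, adjusted p = 0.0525). Gene-level FPKM do not separate spliced from unspliced Xbp1. Atf6, the sensor that is cut in the Golgi to release a transcription factor, lay between 5.88 and 7.92 FPKM in the normal livers, 5.55 and 6.501 in the Akt/Nras group and 6.52 and 7.91 in the Akt/Nras/Foxo1AAA group, and was not called (adjusted p = 0.391 and 0.388).

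ER-associated degradation held the largest decreases. Of its 7 genes, 5 (71.4%) were called lower in Akt/Nras tumours and 4 (57.1%) in Akt/Nras/Foxo1AAA tumours, and none was called higher. Among all genes tested 37.9% and 36.5% were called lower. However, equal totals called only Herpud1 and Derl2 lower in Akt/Nras tumours and only Herpud1 in Akt/Nras/Foxo1AAA tumours, with 3 and 2 called higher. Herpud1, a stress-induced scaffold of the degradation complex, was at 227.7, 227.4, 278.4 and 242.1 FPKM in normal liver. It was at 99.7, 102.9 and 88.4 FPKM in Akt/Nras tumours and 121.4, 97.2 and 115.6 in Akt/Nras/Foxo1AAA tumours. The lowest normal liver stood well above the highest tumour library. Its mean was 2.51-fold lower in Akt/Nras tumours (-1.32 ± 0.11 SE, limma adjusted p = 1.69e-06) and 2.19-fold lower in Akt/Nras/Foxo1AAA tumours (-1.13 ± 0.11, adjusted p = 8.7e-06). Relative to the median of all genes, Herpud1 changed by -1.25 and -1.03 on the deposited scale and by -1.05 and -0.87 with equal totals.

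Derl2, a derlin of the retrotranslocation machinery, was at 20.8, 24.9, 23.4 and 21.5 FPKM in normal liver. In Akt/Nras tumours it fell to 7.89, 9.69 and 10.1 FPKM (-1.21 ± 0.11 SE, limma adjusted p = 2.89e-06), and in Akt/Nras/Foxo1AAA tumours it stood at 15.2, 13.4 and 12.1 FPKM (-0.70 ± 0.11, adjusted p = 0.000219). The 3 groups formed separate ranges, although with equal totals the second change was -0.02 and no longer called (adjusted p = 0.865). Edem1, a lectin that marks misfolded glycoproteins for disposal, was at 34.1, 41.9, 38.6 and 36.2 FPKM in normal liver, 15.9, 19.5 and 17.0 in Akt/Nras tumours and 23.8, 20.6 and 21.3 in Akt/Nras/Foxo1AAA tumours. Both changes of Edem1 (-1.07 ± 0.10 and -0.76 ± 0.10 SE, limma adjusted p = 3.58e-06 and 6.65e-05) shrank to -0.14 and -0.06 with equal totals. Sel1l, the membrane anchor of the ubiquitin ligase, was lower in Akt/Nras tumours (-0.44 ± 0.11 SE, adjusted p = 0.00388) and in Akt/Nras/Foxo1AAA tumours (-0.29 ± 0.11, adjusted p = 0.037), and turned to 0.47 and 0.39 with equal totals. The second Sel1l call was lost without normal liver 1, 2 or 4 (adjusted p = 0.0532, 0.089 and 0.0813) or Akt/Nras/Foxo1AAA 2 or 3 (0.122 and 0.0925). Derl1 was at 64.8 to 73.1 FPKM in normal liver and at 48.8, 52.1 and 52.1 in Akt/Nras tumours (-0.45 ± 0.08 SE, limma adjusted p = 0.000441; 0.51 with equal totals). In Akt/Nras/Foxo1AAA tumours it was at 61.1, 60.7 and 68.9 FPKM and was not called (adjusted p = 0.152).

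Syvn1 (HRD1, the ubiquitin ligase of this pathway) and Derl3 were not called. Syvn1 lay between 16.8 and 21.4 FPKM in the normal livers, between 11.02 and 25.2 with Akt/Nras and between 12.6 and 23.1 with Foxo1AAA added, so that both tumour groups enclosed the normal range. Derl3 was near the detection filter at 1.20, 1.45, 2.26 and 1.20 FPKM in normal liver, 0.580, 1.41 and 0.801 in Akt/Nras tumours and 2.54, 1.10 and 1.37 in Akt/Nras/Foxo1AAA tumours, and its groups overlapped (limma adjusted p = 0.13 and 0.819). Syvn1, Derl2, Ssr2, Manf and Spcs1 share exon bases with genes on the other strand that were above 3 FPKM in at least 1 library (Mrpl49 up to 26.5 FPKM beside Syvn1, Gm10704 up to 15.7 beside Ssr2, Mis12 up to 7.42 beside Derl2, Dcaf1 up to 4.97 beside Manf and Glt8d1 up to 3.97 beside Spcs1). Whether strand was used in counting is not given in the sources used here, so some reads of these 5 genes could belong to the partner.

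**Figure D3:**
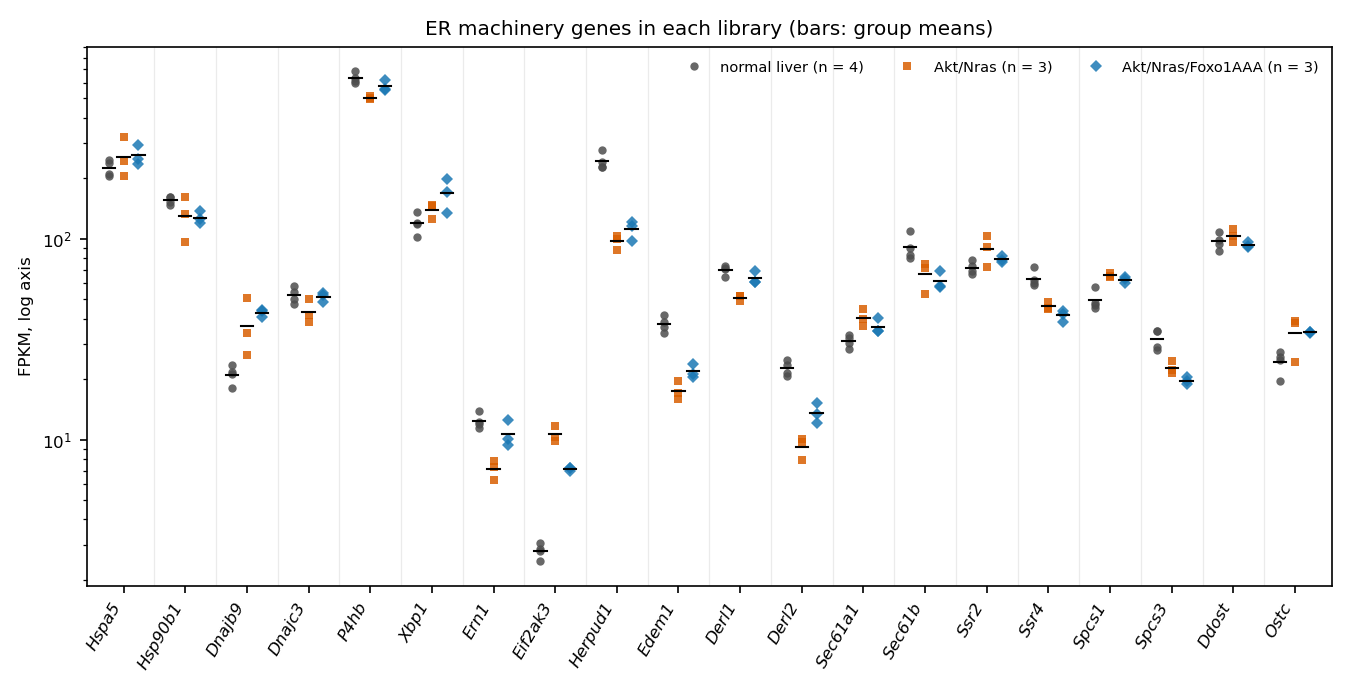
FPKM on a log axis for 20 of the genes in each of the 10 libraries (points) with group means (bars). Eif2ak3 and Dnajb9 lie above normal liver in every tumour, Herpud1, Edem1 and Derl2 lie below it, and the Hspa5 and Ddost points of the 3 groups overlap.

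In the translocation machinery, subunits of the same complex moved apart on the deposited scale. The Sec61 channel has a pore subunit, Sec61a1, which was at 28.4, 32.0, 33.3 and 30.4 FPKM in normal liver, 39.9, 44.8 and 36.6 in Akt/Nras tumours and 34.5, 34.6 and 40.1 in Akt/Nras/Foxo1AAA tumours. Every tumour lay above every normal liver, with a rise of 0.37 ± 0.10 (SE, limma adjusted p = 0.0053) in Akt/Nras tumours and a difference of 0.22 ± 0.10 (adjusted p = 0.0613) in Akt/Nras/Foxo1AAA tumours. The small subunit Sec61b was at 80.1, 89.5, 109.3 and 83.1 FPKM in normal liver, 53.2, 74.7 and 71.5 in Akt/Nras tumours and 57.5, 58.2 and 69.2 in Akt/Nras/Foxo1AAA tumours. All tumours were below the normal range (-0.44 ± 0.14 SE, limma adjusted p = 0.0181, and -0.54 ± 0.14, adjusted p = 0.00723), while equal totals gave 0.52 and 0.17. Without Akt/Nras 1, the lowest tumour library, the first Sec61b call was lost (-0.29, adjusted p = 0.0767). Sec61g, the other small subunit, changed by -0.27 ± 0.12 (SE, adjusted p = 0.0658) and -0.33 ± 0.12 (adjusted p = 0.0354), and with equal totals the values were 0.65 and 0.36 (adjusted p = 0.000439 and 0.0201). Its call was lost without normal liver 2 or 3 (adjusted p = 0.0876 and 0.0904) or Akt/Nras/Foxo1AAA 1 or 2 (0.107 and 0.087).

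The translocon-associated protein complex, which helps some signal peptides open the channel, showed the same unevenness. Ssr4 was at 58.8, 59.9, 72.6 and 62.2 FPKM in normal liver, 44.5, 45.2 and 48.6 in Akt/Nras tumours and 38.5, 42.4 and 43.6 in Akt/Nras/Foxo1AAA tumours, without overlap. It was called lower in both (-0.45 ± 0.09 SE, limma adjusted p = 0.00118, and -0.60 ± 0.09, adjusted p = 0.000204), and equal totals gave 0.51 and 0.11. Ssr2 was at 66.9 to 78.1 FPKM in normal liver and 72.2, 102.9 and 91.3 in Akt/Nras tumours, a rise of 0.29 ± 0.11 (SE, limma adjusted p = 0.0444) that was lost without normal liver 1, 2 or 4 (adjusted p = 0.0667, 0.0898 and 0.106), without Akt/Nras 2 or 3 (0.188 and 0.119) or without any Akt/Nras/Foxo1AAA library (0.0537 to 0.0594). In Akt/Nras/Foxo1AAA tumours Ssr2 was at 76.9, 81.9 and 78.5 FPKM (adjusted p = 0.314). Ssr1 and Ssr3 changed by between -0.12 and 0.03 and were not called, and with equal totals Ssr1, the one with negative values, was at 0.86 and 0.56.

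Signal peptidase, which removes the signal peptide, divided in the same way. Its small subunit Spcs1 was at 45.1, 48.2, 57.7 and 46.6 FPKM in normal liver, 67.3, 65.4 and 64.4 in Akt/Nras tumours and 60.2, 62.8 and 64.5 in Akt/Nras/Foxo1AAA tumours. No tumour overlapped normal liver (0.41 ± 0.09 SE, limma adjusted p = 0.00202, and 0.34 ± 0.09, adjusted p = 0.00725). Spcs3, a subunit needed for activity, was at 27.9, 34.6, 34.7 and 29.01 FPKM in normal liver, 21.5, 24.6 and 22.3 in Akt/Nras tumours and 20.5, 19.5 and 18.9 in Akt/Nras/Foxo1AAA tumours. It was lower in both without overlap (-0.45 ± 0.10 SE, limma adjusted p = 0.00173, and -0.65 ± 0.10, adjusted p = 0.000169), and equal totals gave 0.49 and 0.04. Relative to the median of all genes, Spcs1 was at 0.48 and Spcs3 at -0.38 in Akt/Nras tumours, and with equal totals at 0.67 and -0.21. Spcs2 was not called against normal liver (adjusted p = 0.127 and 0.0768).

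The oligosaccharyltransferase, which attaches N-glycans to nascent chains, was little changed apart from Ostc on the deposited scale, while with equal totals all 5 subunits were called higher in both tumour groups (0.92 to 1.37 and 0.52 to 1.18). Ostc, a subunit that links the enzyme to the channel, was at 24.9, 27.4, 25.7 and 19.6 FPKM in normal liver, 24.3, 38.9 and 38.1 in Akt/Nras tumours and 33.9, 34.5 and 34.3 in Akt/Nras/Foxo1AAA tumours. The first tumour group overlapped normal liver and the second did not (0.43 ± 0.16 SE, limma adjusted p = 0.0345, and 0.48 ± 0.16, adjusted p = 0.0233). The first Ostc call was lost without normal liver 1 or 4 (adjusted p = 0.0546 and 0.0912) or Akt/Nras 2 or 3 (0.138 and 0.134), and the second without normal liver 4 (0.0622) or any library of its own group (0.0512 to 0.0607). Ddost, a subunit of the core enzyme, was at 86.6 to 108.7 FPKM in normal liver, 96.2, 111.3 and 102.8 in Akt/Nras tumours and 91.1, 96.2 and 91.7 in Akt/Nras/Foxo1AAA tumours. Its groups overlapped, with changes of 0.09 ± 0.09 (SE, limma adjusted p = 0.384) and -0.06 ± 0.09 (adjusted p = 0.613), the second of which turned to 0.66 with equal totals. The catalytic subunit Stt3a and the ribophorins Rpn1 and Rpn2 changed by between -0.16 and 0.08 and were not called.

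Between the tumour groups 3 of the 41 genes were called higher and 2 lower in Akt/Nras/Foxo1AAA tumours (12.2%), beside 12.1% of all genes (7.93% higher and 4.13% lower). The higher genes were Ern1 (1.49-fold, log2 change 0.51 ± 0.12 SE, limma adjusted p = 0.0236), Derl2 (1.47-fold, 0.51 ± 0.12, adjusted p = 0.0207) and Derl1 (1.25-fold, 0.31 ± 0.08, adjusted p = 0.0382). For these 3 genes the Akt/Nras/Foxo1AAA means lay between those of Akt/Nras tumours and normal liver on the deposited scale. That order held with equal totals for Derl2 (-0.31 with Akt/Nras and -0.02 with Akt/Nras/Foxo1AAA against normal liver). It did not hold there for Ern1 (0.16 and 0.46) or Derl1 (0.51 and 0.58). Eif2ak3 was lower by 0.51 ± 0.09 on the log2 scale (SE; 7.12 ± 0.13 against 10.6 ± 1.0 FPKM, SD, n = 3 each; limma adjusted p = 0.00814), and so was also nearer to normal liver. Spcs2 was at 26.6, 27.4 and 26.7 FPKM against 33.8, 35.7 and 31.4 (-0.31 ± 0.08 SE, adjusted p = 0.0363). Ern1, Derl2, Derl1, Eif2ak3 and Spcs2 did not overlap between the groups.

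These 5 calls drew on all 10 libraries for their estimate of spread. Fitted on the 6 tumour libraries alone, none of the 41 genes was called by limma (4 higher and 2 lower at an unadjusted p under 0.05), and limma called 5 genes higher and 5 lower among all 12439. Equal totals gave 0 members higher and 11 lower (2 and 15 in limma at an unadjusted p under 0.05). All 12439 genes then split 656 higher to 3234 lower. Voom on the recovered reads gave 3 members higher and 2 lower. Eif2ak3 was lower in all 20 alternatives and kept its call in 19, losing it in the fit on the 6 tumour libraries (adjusted p = 0.0549). The Ern1 call was lost without Akt/Nras 1 (adjusted p = 0.0688) or Akt/Nras/Foxo1AAA 1 (0.0596), and the Derl2 call without Akt/Nras 1 (0.0569) or Akt/Nras/Foxo1AAA 1 or 2 (0.0832 and 0.0635). Derl1 kept its call only without normal liver 1 when single libraries were left out (adjusted p from 0.0501 to 0.0938 in the other 9). Spcs2 was lost without normal liver 3 or 4, Akt/Nras 1 or 2 or any Akt/Nras/Foxo1AAA library (adjusted p from 0.0539 to 0.109). The 9 lumen chaperones, the lectins and the isomerases had no call between the tumour groups, with changes from -0.11 to 0.26. With equal totals they were also not called (limma adjusted p of 0.0808 or more), and 11 of these 15 changes turned negative.

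The lumen chaperones also varied inside the Akt/Nras group. Their median ratio of highest to lowest library was 1.702 there, against 1.295 for the 41 genes and 1.289 for all genes tested. In normal liver it was 1.297 (all genes 1.294) and in Akt/Nras/Foxo1AAA tumours 1.25 (all genes 1.259). In Akt/Nras tumours, library 2 was the highest of the 3 for 33 of the 41 genes (80.5%) and library 1 the lowest for 34 (82.9%), whereas over all genes tested library 2 was highest for 29.6% and library 1 lowest for 37.7%. All 9 lumen chaperones and all 5 oligosaccharyltransferase subunits had this order of highest and lowest. Creld2 had the widest range of the 41 genes, at 28.4, 79.2 and 45.3 FPKM in the 3 Akt/Nras tumours (2.78-fold). Sdf2l1 was at 25.8, 70.0 and 39.5. In normal liver the same genes ran from 36.6 to 52.1 and from 29.2 to 45.3 FPKM. Hyou1 was at 19.6, 42.7 and 27.0 FPKM and Manf at 40.0, 68.1 and 51.1 in the Akt/Nras tumours. In these 3 libraries the summed hepatocyte markers were 48710, 48500 and 47520 FPKM and the summed macrophage markers 126.6, 185.8 and 224.0. The summed cholangiocyte markers were 4114, 5804 and 5463. Of those tested, Spp1 rose most against normal liver with equal totals (9.08, next Sox9 at 5.29). The part of cell composition in the spread was not tested. Among Akt/Nras/Foxo1AAA tumours, library 1 was highest for 8 of the 9 lumen chaperones and library 3 lowest for 7. Over all genes tested, library 1 of this group was highest for 37.2% and library 3 lowest for 38.2%. Across the 41 genes, that library 1 was highest for 21 but lowest for 16. In normal liver, library 3 was highest for 24 of the 41 genes and library 2 for 16 (58.5% and 39.0%, beside 25.5% and 28.1% of all genes tested).

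**Figure D4:**
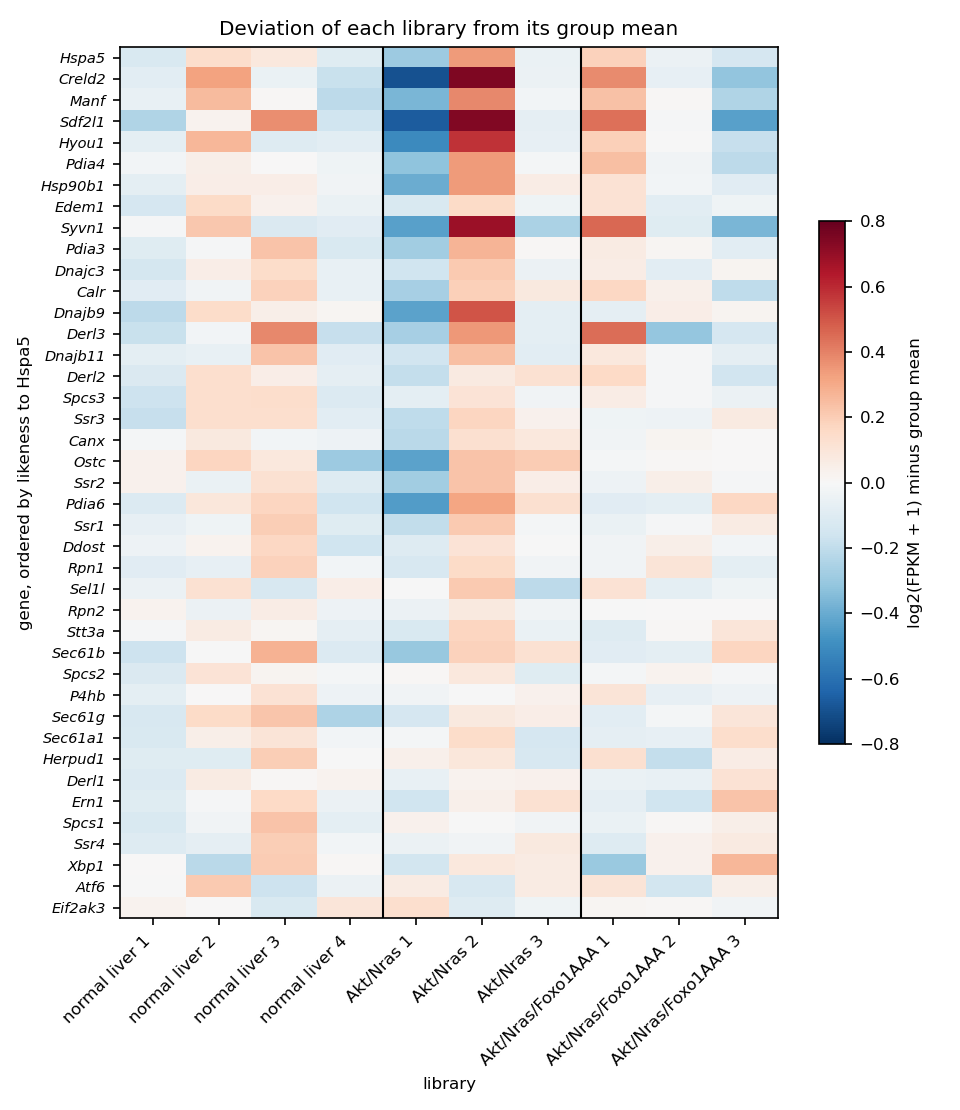
Log2(FPKM + 1) of each gene in each library minus the mean of its group (colour scale from -0.8 to 0.8), with genes ordered by the correlation of these deviations with those of Hspa5. The column of Akt/Nras 2 is red and that of Akt/Nras 1 blue for the chaperones at the top, Creld2, Manf, Sdf2l1 and Hyou1 among them, and Eif2ak3 at the bottom does not share the pattern.

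Taken as deviations from the group means over the 10 libraries, Hspa5 varied with Creld2 (Pearson r = 0.964), Manf (0.955), Sdf2l1 (0.953), Pdia4 (0.937), Hyou1 (0.937) and Hsp90b1 (0.924). For 14 of the other 40 genes r was above 0.8, and for 4 below 0 (with group means left in, 3 and 12). Eif2ak3 had r = -0.682, Atf6 -0.138 and Xbp1 -0.127. These values are descriptions, since all genes of a library share its preparation and depth, and the 3 Akt/Nras tumours carry much of the spread. The 11 genes whose promoter held ERSE or ERSE-II had a median r of 0.825 with Hspa5 (over the 10 other than Hspa5, from 0.312 for Herpud1 to 0.964 for Creld2), the 22 with neither had a median of 0.558, and the 8 that lack a listed promoter had 0.693. Of those 11 genes none was called higher and 2 were called lower in Akt/Nras tumours, Dnajc3 and Herpud1, beside 31.1% and 37.9% of all genes. This depended on the scale, because equal totals called only Herpud1 of them lower (-0.35). Dnajc3 (0.69), Hspa5, Hsp90b1, Calr, Canx, Pdia6, Creld2, Syvn1 and Dnajb11 were then called higher, where all genes split 8609 to 1713. The next ranking leaves out symbols that begin with Gm. Outside the list, the genes most like Hspa5 over the 10 libraries on log2(FPKM + 1) were Bcl6 (r = 0.965), Nktr (0.896), Hsph1 (0.89), Zfp518a (0.885) and Idua (0.877). Over the 6 tumours they were Snx27 (0.988), Tubb4b-ps1 (0.986), Bcl6 (0.977), Eif2ak4 (0.974) and Birc6 (0.974). On these log2 values the median r of the other 40 members was 0.373 over the 10 libraries and 0.637 over the 6 tumours. As deviations from the group means it was 0.69. Over the 6 tumours 10 of the 40 had r above 0.8 and 5 below 0.

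Other genes of the secretory pathway, taken from lists fixed by function, moved in both directions on the deposited scale. Of 26 other folding and oxidation enzymes, 11 were called higher and 10 lower in Akt/Nras tumours, and 10 and 9 in Akt/Nras/Foxo1AAA tumours. Dnajc10, a reductase with a J domain, rose (2.41 and 1.94, limma adjusted p = 3.29e-06 and 2.42e-05), as did the calcium-binding Calu (1.62 and 1.36) and the oxidase Ero1a (1.39 and 0.78), while Pdia5 fell (-1.78 and -1.46). Of 17 other degradation genes, 2 were higher and 7 lower in Akt/Nras tumours and 2 and 8 in Akt/Nras/Foxo1AAA tumours, with the ubiquitin ligase Rnf5 (-1.20 and -0.77) and the lectin Os9 (-0.79 and -0.56) among the decreases. With equal totals 13 and 11 of these 17 genes were called higher, Rnf5 was at -0.25 and -0.07 and Os9 turned to 0.17 and 0.16. Among 8 tested genes of glycan trimming, 0 were higher and 4 lower in Akt/Nras tumours and 2 were higher and 4 lower in Akt/Nras/Foxo1AAA tumours. Of 19 tested genes of targeting and translocation, 4 were higher and 6 lower in both. With equal totals 21 and 18 of the folding enzymes and 6 and 4 of the glycan trimming genes were called higher. So were 15 and 15 of the targeting genes, beside 8609 and 7584 of all 12439 genes. On the deposited scale 31.1% and 26.8% of all genes were called higher and 37.9% and 36.5% lower. Stt3b, the paralogue of Stt3a in the second form of the oligosaccharyltransferase, rose (1.5 and 1.23, adjusted p = 6.29e-07 and 4.42e-06), where Stt3a was not called.

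Of 12 tested stress signalling genes, 7 were higher and 4 lower in Akt/Nras tumours and 6 and 4 in Akt/Nras/Foxo1AAA tumours. Ddit3 (CHOP), a transcription factor induced downstream of PERK, rose by 0.89 and 1.02 (limma adjusted p = 0.00876 and 0.00458), and Trib3, a target of CHOP and ATF4, by 1.26 and 2.29 (adjusted p = 0.00646 and 0.000162). Atf4 mRNA itself changed by 0.25 and 0.09 and was not called (adjusted p = 0.0747 and 0.524). It was called higher in both tumour groups with equal totals (1.21 and 0.80, limma adjusted p = 6.16e-06 and 0.000222). Creb3l3, a liver transcription factor processed like ATF6, fell by 1.69 and 1.10 on the log2 scale (adjusted p = 2.37e-07 and 7.55e-06). Of 27 vesicle coat and cargo receptor genes, 4 were higher and 14 lower in Akt/Nras tumours, and 4 and 7 in Akt/Nras/Foxo1AAA tumours. With equal totals the stress signalling genes split 10 to 1 and 9 to 2. The coat and receptor genes then split 24 to 3 and 24 to 2, and all genes 8609 to 1713 and 7584 to 1681. Creb3l3 was still lower there (-0.73 and -0.39). Among 24 secreted liver proteins 19 were lower and 4 higher in Akt/Nras tumours (median -1.13), and 18 lower and 5 higher in Akt/Nras/Foxo1AAA tumours (median -0.75), where the 41 genes had medians of -0.04 and -0.06. With equal totals 12 cargo genes were lower and 8 higher in Akt/Nras tumours (median -0.16) and 8 lower and 8 higher in Akt/Nras/Foxo1AAA tumours (median -0.02), where the medians of the 41 genes were 0.92 and 0.65. The summed FPKM of the cargo genes was 141600 to 148000 for normal liver, 75350 to 79520 for Akt/Nras and 94600 to 116000 for Akt/Nras/Foxo1AAA tumours. The summed FPKM of the 41 genes was 3205 to 3729, 2723 to 3603 and 3166 to 3405, overlapping in all groups. Both sums are on the deposited scale, on which the FPKM of all genes together was also lower in the tumours, so they are not shares.

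**Figure D5:**
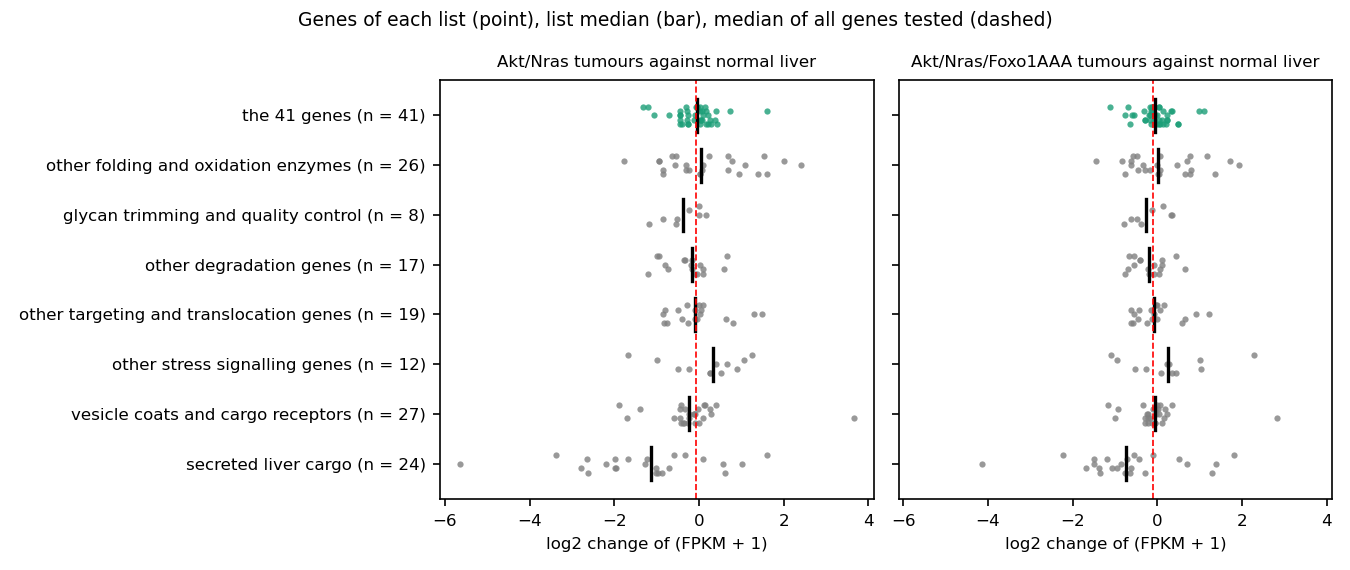
Log2 change of FPKM + 1 for the 41 genes (green points) and the genes of 7 other secretory pathway lists (grey points), with the median of each list (bar) and of all genes tested (dashed line), for both tumour groups against normal liver. The median of the 41 genes sits near the dashed line and that of the secreted liver cargo well to its left, at -1.13 and -0.75 (with equal totals at -0.16 and -0.02).

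The libraries also differed in markers of cell types, and in bulk tissue fewer cells of a type and less RNA per cell cannot be told apart. Of 12 hepatocyte markers, 10 were lower in each tumour group, and their sum lay between 88070 and 93600 FPKM for normal liver, 47520 and 48710 for Akt/Nras and 58980 and 72320 for Akt/Nras/Foxo1AAA tumours. The FPKM of all genes together was also lower in tumours (349618.6 to 444893) than in normal liver (692009.9 to 743202.8). A lower sum of markers is therefore not a lower share. Of 6 tested cholangiocyte markers, 6 and 4 were higher (sums of 16.2 to 24.2, 4114 to 5804 and 2660 to 5385), as were 6 of 8 fibroblast markers in both, with 1 lower (34.3 to 42.3, 157.9 to 182.5 and 101.2 to 134.0). The cholangiocyte markers rose unevenly, and with equal totals Spp1 changed most (9.08 and 8.44) and Cldn4 least (2.64 and 0.63). Of 7 tested macrophage markers 4 were higher in both, with 1 lower in Akt/Nras (87.5 to 126.5, 126.6 to 224.0 and 170.1 to 200.2), and of 7 endothelial markers 3, also with 1 lower in Akt/Nras (29.01 to 37.4, 30.6 to 43.0 and 32.9 to 41.3). Plasma cells and pancreatic acinar cells are rich in these 41 transcripts. Of 14 plasma cell markers 5 passed the filter, with 2 higher and 1 lower in Akt/Nras tumours and 2 higher in Akt/Nras/Foxo1AAA tumours (sums of 85.5 to 103.6, 121.4 to 190.9 and 125.4 to 137.6, mostly Sdc1), and Tnfrsf17 was at 0 in all tumours. Of 8 pancreatic markers only Cela1 passed, lower in both (sums of 30.9 to 40.1, 16.5 to 28.5 and 16.6 to 18.1), and Prss1, Pnlip and Amy2a5 were at 0 in every library. With equal totals 6 hepatocyte markers were lower in each tumour group and 2 and 4 higher, and Cela1 was not called (0.12 and -0.38). In the other 5 marker lists 27 and 25 of 33 tested genes were then higher, beside 8609 and 7584 of all 12439. The part of these differences in the changes of the 41 genes was not tested.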

How the data were processed

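Expression was measured by RNA sequencing of 10 mouse liver or liver tumour libraries. The authors deposited FPKM per gene with gene lengths. Per the submitters' processing notes, FastQC 0.11.7 and GRCm38 took part in the processing. How reads were aligned and counted, scaled, and assigned to strands is not given in the sources used here. FPKM times gene length gave whole reads for 100% of values (tolerance 0.02). Groups came from the sample labels. Log2(FPKM + 1) of the 12439 genes at 1 FPKM or more in at least 3 libraries was fitted in limma 3.58.1 (R 4.3.3; lmFit, contrasts.fit, eBayes with trend) over all 10 libraries, and the method was tested on simulated data. Adjusted p-values are Benjamini-Hochberg over all genes tested. The members and lists (7 of pathway genes, 7 of cell type markers) were chosen with earlier results of these data known. Values per library are given for Hspa5, Hsp90b1, Xbp1, Ern1, Herpud1, Derl3, Sec61a1 and Ddost, and for the called member with the largest change in each direction per role and comparison. The 5 genes outside the list most like Hspa5 by Pearson r are also named, with symbols that begin with Gm left out. Edem1, Derl1, Creld2, Sdf2l1, Hyou1, Manf and the other genes of the lists that are named were added after their values were seen. Results were recomputed under 20 alternatives to scaling, filter, pseudocount, model and libraries. Promoters are RefSeq, matched by symbol; 6 outdated list symbols were matched through the RefSeq gene table.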

Additional observations from a re-analysis of the deposited data

Results flagged for a closer look

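In normal liver, where the group has 4 libraries, the level of each of the 41 genes was checked for a single library far from the rest, and 2 genes had one. Hyou1 was at 41.07 FPKM in normal liver 2 against 31.65 to 32.26 in the other normal livers, a gap of 0.936 of the whole range. Dnajb11 was at 51.48 FPKM in normal liver 3 against 41.1 to 41.95 in the others (0.918 of the range). Both gaps exceeded the Dixon limit for 4 samples. Chance flags about 1 in 20 groups. Neither gene was called in any comparison.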

How the results depend on the processing

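With equal totals, 36 members were called higher and 2 lower in Akt/Nras tumours against normal liver, and 33 higher and 1 lower for Akt/Nras/Foxo1AAA. Between the tumour groups 0 were called higher and 11 lower. All 12439 genes split 8609 to 1713, 7584 to 1681 and 656 to 3234 in these comparisons. With equal totals that leave out the 50 most abundant genes the members split 31 to 3, then 29 to 1. All genes split 7489 to 2195 and 6845 to 1916 there. The sum of all FPKM differed between the groups, which is what these settings remove, and which scale reflects RNA per cell was not tested. Under equal totals the sign turned for 18, 20 and 17 members in the 3 comparisons, and for 16, 18 and 11 without the 50 genes. In Akt/Nras tumours it turned positive under both, with these values, for Hsp90b1 (0.68, 0.42), Dnajc3 (0.69, 0.43), P4hb (0.66, 0.39), Sel1l (0.47, 0.23), Derl1 (0.51, 0.25), Sec61b (0.52, 0.26), Ssr4 (0.51, 0.25) and Spcs3 (0.49, 0.24), also for Hyou1, Dnajb11, Pdia4, Atf6, Syvn1, Sec61g, Ssr1 and Rpn2, and under equal totals alone for Ern1 (0.16) and Derl3 (0.13). In Akt/Nras/Foxo1AAA tumours it did so for Hsp90b1 (0.44, 0.31), Ern1 (0.46, 0.35), Sel1l (0.39, 0.28), Sec61b (0.17, 0.051), Sec61g (0.36, 0.24) and Ddost (0.66, 0.54), also for Hyou1, Dnajc3, Pdia3, Pdia4, P4hb, Syvn1, Derl1, Ssr1, Spcs2, Stt3a, Rpn1 and Rpn2, and under equal totals alone for Ssr4 (0.11) and Spcs3 (0.045). Between the tumour groups it turned negative for Hspa5 (-0.21, -0.071) and Hsp90b1 (-0.25, -0.11), also for Hyou1, Dnajb11, Manf, Calr, Canx, Pdia4, Pdia6, Ssr3 and Ostc, and under equal totals alone for Herpud1 (-0.052), Creld2, P4hb, Atf6, Syvn1 and Sel1l.

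Median-ratio size factors turned the sign of 3, 5 and 0 members. Ddost in Akt/Nras/Foxo1AAA tumours against normal liver turned to 0.052 with median-ratio size factors, 0.052 with voom on the recovered reads and 0.00776 with array weights. Array weights also gave -0.13 for Derl3 in Akt/Nras/Foxo1AAA tumours, -0.00617 for Hspa5 and -0.088 for Hsp90b1 between the tumour groups, and 8 members higher in Akt/Nras/Foxo1AAA tumours. None of these 4 changes was called. With only the 2 tumour groups fitted, 0 members were called higher and 0 lower by limma (4 and 2 at an unadjusted p under 0.05; the cause was not tested). A pseudocount of 0.1 and a minimum of 5 FPKM left every count of members called unchanged.

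Groups share replicate numbers, but nothing says that a number marks a shared mouse, litter or day. Deviations of libraries with the same number had correlations of -0.17 to 0.112, so the numbers were not taken to pair the libraries. With the replicate block, 1 member was called higher and 1 lower between the tumour groups, against 3 and 2, and the counts against normal liver stayed within 1.5 times.

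Leaving out 1 library at a time gave 3 to 6 members higher in Akt/Nras/Foxo1AAA tumours against normal liver, lowest without Akt/Nras/Foxo1AAA 3. Between the tumour groups it gave 0 to 3 higher (0 without Akt/Nras 1 or Akt/Nras/Foxo1AAA 1, each with 4 in limma at an unadjusted p under 0.05) and 1 to 2 lower. The change of Derl3 in Akt/Nras/Foxo1AAA tumours ran from -0.16 to 0.22, that of Hspa5 between the tumour groups from -0.11 to 0.21 and that of Hsp90b1 from -0.20 to 0.17, none of them called. Groups of 3 and 4 libraries limit what can be called, and the lowest read counts, 19 to 92 for Derl3, limit its precision.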
